A study of Mus musculus with 24 samples.

Results

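The genes Slc38a2 and Tfrc encode proteins that bring nutrients into activated T cells, and the AGO2 contacts on the 3′ untranslated regions (3′ UTRs) of their messenger RNAs are described here. They were chosen by gene symbol: every peak that the authors' deposited table assigns to either gene was taken, which gave 33 of 14634 peaks, 21 in Slc38a2 and 12 in Tfrc. Argonaute 2 (AGO2) was crosslinked to RNA in CD4+ T cells and immunoprecipitated, and the attached RNA was sequenced (HITS-CLIP). There were 12 libraries from miR-155 knockout cells and 12 from wild-type cells, all from C57BL/6 spleen and lymph nodes. Both genotypes were cultured for 4 days with antibodies to CD3 and CD28 at 1 µg/mL and IL-2 at 20 U/mL. Sample titles number the libraries of each genotype as biological replicates. The labels give no age or sex and do not say whether libraries of a genotype came from separate mice. Each genotype had 6 libraries with each of 2 linkers at the RNA's 3′ end. The table gives 1 pooled value per genotype and peak, so there is no value per library and no replicate error.

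SLC38A2, also called SNAT2, is a sodium-coupled carrier of small neutral amino acids such as alanine and glutamine, and its gene is induced when amino acids run short. The transferrin receptor, the product of Tfrc, takes up iron bound to transferrin. Its mRNA carries iron-responsive elements, hairpins in the 3′ UTR to which iron regulatory proteins bind when iron is scarce, which protects the mRNA from decay. miR-155, a microRNA induced on lymphocyte activation, guides AGO2 to messages that match its seed, bases 2 to 8 of the microRNA.

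The sequences that bear on the miR-155 comparison are the microRNA itself, its matches in both 3′ UTRs and the stretch of the second Slc38a2 peak that was lower without it. They come from RefSeq (GRCm38.p6) for the microRNA and from GENCODE M21 transcripts (GRCm38) for the UTRs, 5′ to 3′. Capitals mark the seed in the microRNA and the match in each UTR stretch.
miR-155-5p: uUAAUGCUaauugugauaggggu
Slc38a2 peak 13, 8-nt match, minus strand of chr15:96687926-96687955: gtactgttatttatagagcAGCATTAAtcc
Slc38a2 outside all peaks, 6-nt match, minus strand of chr15:96689495-96689524: ttatttgccttttttgtggGCATTAtaagc
Tfrc outside all peaks, 7-nt match, plus strand of chr16:32630626-32630655: aatgctatatgtcctgaggGCATTAActag
Slc38a2 peak 15, no miR-155 match, capitals for a 6-nt match to miR-101, minus strand of chr15:96687836-96687865: tttgtaaatagattgtataTACTGTtggaa

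All read numbers are the authors' pooled and scaled reads, recovered from their log2 values by taking off the 1 that was added. Over all peaks they summed to 374126 in knockout cells and 371088 in wild-type cells, and the median log2 difference of a peak, knockout minus wild type, was -0.20. AGO2 reads on a message depend on how much of it there is, so fewer transcripts and less AGO2 per transcript cannot be told apart in these pooled values. Of 9 markers of CD4+ T cells, 7 had peaks, including Cd4 and Cd3e. None of 20 markers of B cells, CD8 and NK cells, myeloid cells, or erythroid cells and platelets was listed with one. Peaks record AGO2 contacts and not expression, so a marker without a peak may still be expressed, and purity was not tested.

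Slc38a2 held fewer AGO2 reads without miR-155, and 2 peaks in its distal 3′ UTR fell. Summed over its 21 peaks, Slc38a2 held 296 scaled reads in knockout cells and 643 in wild-type cells (log2 ratio -1.12). Peak 13 and peak 15 were lower in knockout cells at an adjusted p below 0.05, and no peak was higher. That is 9.52% of its peaks, beside 0.574% of all 14634 peaks called lower, 0.0273% called higher and 0.601% called in either direction. The gene was chosen with earlier results of these data known, so this contrast is a description and not a test. The authors' deposited table gives no other Slc38a2 peak a p below 0.05. Tfrc held 168 reads in knockout cells and 225 in wild-type cells over 12 peaks (log2 ratio -0.42), and none of its peaks was called in either direction.

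**Figure D1:**
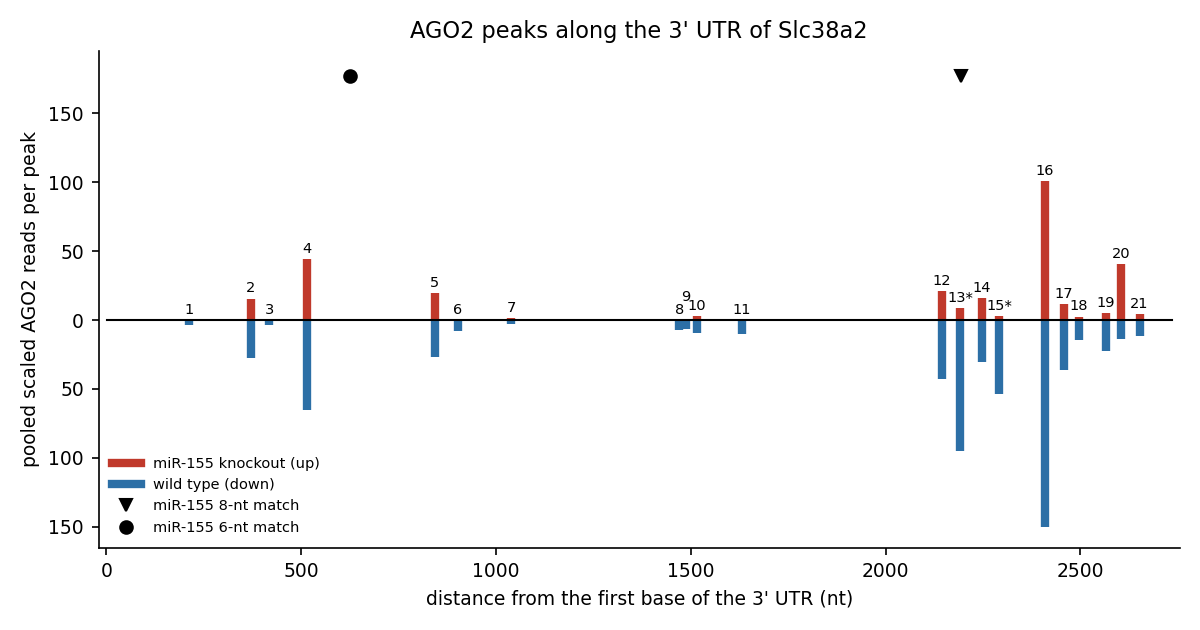
Pooled scaled AGO2 reads of each Slc38a2 peak (vertical axis; knockout upward in red, wild type downward in blue) by position in the 3′ UTR in nt (horizontal axis), with numbers naming the peaks, asterisks the 2 peaks lower at an adjusted p below 0.05, and symbols at the top the miR-155 matches. Peaks 13 and 15 have short knockout bars of 8.75 and 2.79 reads over wild-type bars of 95.2 and 53.9 reads, and peak 16 is the tallest in both genotypes.

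The 3′ UTR of Slc38a2 is 2735 nt long and lies within exon 16 of 16 (transcript ENSMUST00000023099.7), on the minus strand of chromosome 15 from 96687392 to 96690126 of GRCm38. Its 21 peaks covered 24.4% of it, with lengths from 2 to 57 nt (median 32 nt). Among the 4165 genes of the table it ranked 42nd by number of peaks, tied with other genes of 21 peaks, and 126th by reads. Among 68 solute carrier genes with peaks it ranked second by peaks and by reads, and the family's 223 peaks included 2 called lower, both in Slc38a2, and 0 called higher. That is 0.897% lower, beside 0.574% of all peaks.

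Peak 13 held 8.75 reads in knockout cells and 95.2 in wild-type cells. Its log2 difference, knockout minus wild type, was -3.30, and its reads were 10.9-fold lower in knockout cells. The authors' deposited table gives p = 5.75e-08, which came to 2.47e-05 after Benjamini-Hochberg adjustment over all peaks. The peak spans nt 2174 to 2210 of the 3′ UTR (chr15:96687917-96687953), and it ranked 33rd by p among the 84 lowered peaks. It was the third most-read peak of the gene over both genotypes together, with 2.95% of the gene's knockout reads and 14.8% of its wild-type reads.

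Within peak 13 lies an 8-nt match to miR-155 at nt 2191 to 2198, shown above, which pairs with all of bases 2 to 8 and has an A opposite base 1. This was the only 7-nt or 8-nt miR-155 match in the whole Slc38a2 3′ UTR. Such an 8-nt match was present in 67 peaks of the table, of which 21 were called lower and 49 were listed at 0 in knockout cells. Peak 13 was 9th of the 67 by wild-type reads, and among the 18 with reads in both genotypes its log2 difference was the 4th lowest. The match lies 17 nt from the peak's first base. A few bases before it lies the AU-rich run TATTTAT, which occurs in 2.47% of all peaks.

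Peak 15 held 2.79 reads in knockout cells and 53.9 in wild-type cells (log2 difference -3.86; reads 19.3-fold lower in knockout cells). The fold, taken without the added 1, is larger than the log2 difference gives and rests on only 2.79 knockout reads. In the authors' deposited table its p was 1.63e-05, with a Benjamini-Hochberg adjusted p of 0.00373 and a Bonferroni-adjusted p of 0.239. It spans nt 2273 to 2309 (chr15:96687818-96687854), and 74 nt separate it from the end of the miR-155 match in peak 13. Its sequence held no miR-155 match of any of the 6 classes searched, which run from all 8 bases (8mer) down to 6 (6mer, 6mer-A1 and the offset 6mer). It held no match to bases 2 to 8 with 1 mismatch either, which 274 of 3187 peaks with a sequence length within 2 nt of its own held (8.60%). Of the 84 lowered peaks 14 had no match of the 6 classes, and 12 of these also lacked a match with 1 mismatch.

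Slc38a2 was 1 of 5 genes with 2 lowered peaks, out of 79 genes with at least 1. In Rcor1, a scaffold of a corepressor complex, both lowered peaks held a 7-nt or 8-nt miR-155 match, and in Rc3h2 and Arhgap18 only 1 did, as in Slc38a2. In P2ry10, a receptor gene of lymphocytes, both held shorter matches. In Slc38a2 and Arhgap18, the second lowered peak held none of the 6 classes.

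Between the lowered peaks lies peak 14, at nt 2232 to 2261, 33 nt beyond the match. It held 15.9 reads in knockout cells and 30.5 in wild-type cells (log2 difference -0.89; p = 0.818 in the authors' deposited table). On the other side, peak 12 ends at nt 2154 and held 21.001 reads in knockout cells and 42.6 in wild-type cells (log2 difference -0.99, p = 0.662 in the same deposited table). Both neighbours had log2 differences closer to 0 than either lowered peak, and neither passed the test. Whether the ratios of neighbouring peaks differ from each other was not tested, since no value per library is given.

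**Figure D2:**
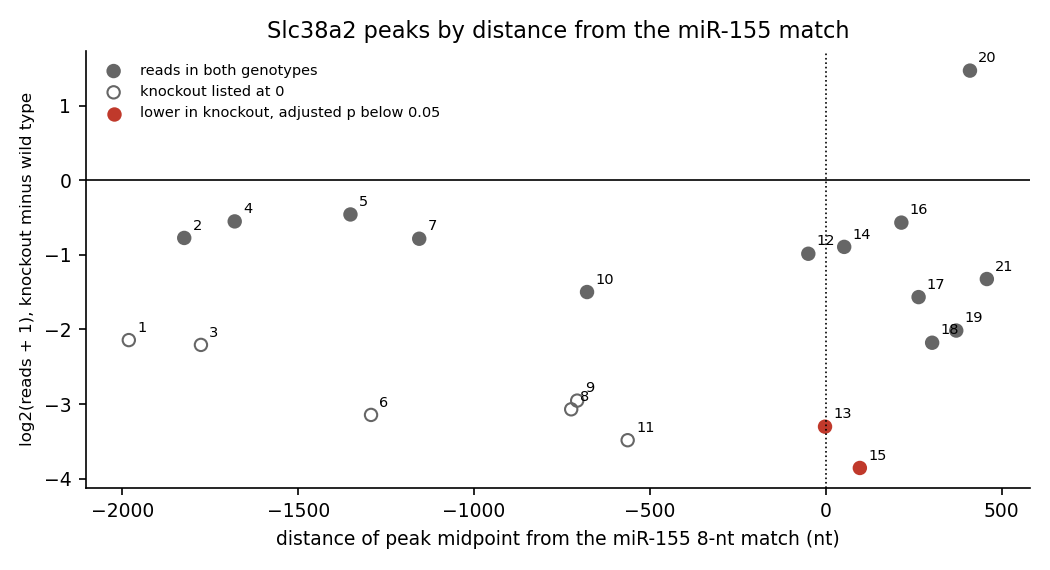
Difference of log2(reads + 1), knockout minus wild type, of each Slc38a2 peak (vertical axis) by the distance of its midpoint from the miR-155 8-nt match in nt (horizontal axis; the dotted line marks the match). The 2 red points, peaks 13 and 15, lie at -3.30 and -3.86, peaks 12 and 14 beside the match at -0.99 and -0.89, and open circles are the 6 peaks listed at 0 in knockout cells.

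The most-read Slc38a2 peak, peak 16, was not one of the lowered ones. At nt 2394 to 2424, it held 101 reads in knockout cells and 150 in wild-type cells, which made up 34.1% of the gene's knockout reads and 23.4% of its wild-type reads. Its log2 difference was -0.57 and its p was 0.844 in the authors' deposited table. Peak 16 held no 6mer or longer seed match for any of the 21 microRNA families searched. The 6mer-A1 and the offset 6mer were recorded for miR-155 only, and peak 16 held neither for miR-155. Peak 4, at nt 486 to 542, came second, with 44.3 reads in knockout cells and 65.4 in wild-type cells (log2 difference -0.55; deposited p = 0.380). It held a miR-155 match with 1 mismatch, T4C, where the number counts from the 5′ end of miR-155, the first letter is the UTR base that would pair and the last is the base present. Peak 18 held another, A5T, with 2.48 reads in knockout cells and 14.7 in wild-type cells (log2 difference -2.18, deposited p = 0.653). Peak 10 held the weaker 6mer-A1 match, with 2.70 reads in knockout cells and 9.47 in wild-type cells (deposited p = 0.769).

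A single Slc38a2 peak had more reads in knockout cells. Peak 20, at nt 2595 to 2613 near the end of the UTR, held 40.5 reads in knockout cells and 13.99 in wild-type cells (log2 difference 1.47), and its p in the authors' deposited table was 0.287. It took 13.7% of the gene's knockout reads and 2.18% of its wild-type reads. The other 20 peaks had fewer reads in knockout cells, a share of 95.2%, beside 56.4% of all peaks of the table. Where a peak had 10 or more reads, fewer in knockout cells held for 14 of 15 in Slc38a2 and for 53.8% over the whole set of peaks.

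For 6 Slc38a2 peaks, numbers 1, 3, 6, 8, 9 and 11, the knockout was listed at 0, and their wild-type reads ranged between 3.42 and 10.2, with p-values from 0.155 to 0.756 in the authors' deposited table. No wild-type value was 0. Of all peaks, 16.6% were listed at 0 in knockout cells and 7.87% in wild-type cells. Peak 9 is only 2 nt long and directly follows peak 8 with no base in common, though the deposited sequences of both, with 6 nt of flank on each side, overlap. As for other Slc38a2 peaks, peak 5 held 19.4 reads in knockout cells and 26.99 in wild-type cells, and peak 19 held 4.80 in knockout cells and 22.5 in wild-type cells. Peak 21 held 4.00 in knockout cells and 11.5 in wild-type cells, and peak 7 held 1.11 in knockout cells and 2.64 in wild-type cells. These 4 had fewer reads in knockout cells, with p-values from 0.143 to 0.940 in the authors' deposited table.

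Most Slc38a2 reads lay near the end of the 3′ UTR. The 10 peaks that end within the last 600 nt, numbers 12 to 21, held 72.9% of the gene's reads, with 213 in knockout cells and 472 in wild-type cells (log2 ratio -1.15). The 11 peaks before them held 83.0 in knockout cells and 171 in wild-type cells (log2 ratio -1.04). The gap of 486 nt between peaks 11 and 12 was the widest stretch without a peak.

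The lowered peaks carried part of the difference in reads. Together they held 11.5 reads in knockout cells and 149 in wild-type cells, which is 39.7% of the difference between the genotypes over the gene. Without them Slc38a2 held 285 reads in knockout cells and 494 in wild-type cells (log2 ratio -0.80, 42.4% fewer). Among 302 genes with at least 10 peaks the log2 ratio of Slc38a2 was the 4th lowest, where the median was -0.03. With called peaks left out of every gene it was the 9th lowest of 300 genes. These ranks describe the pooled libraries and are not a test.

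**Figure D3:**
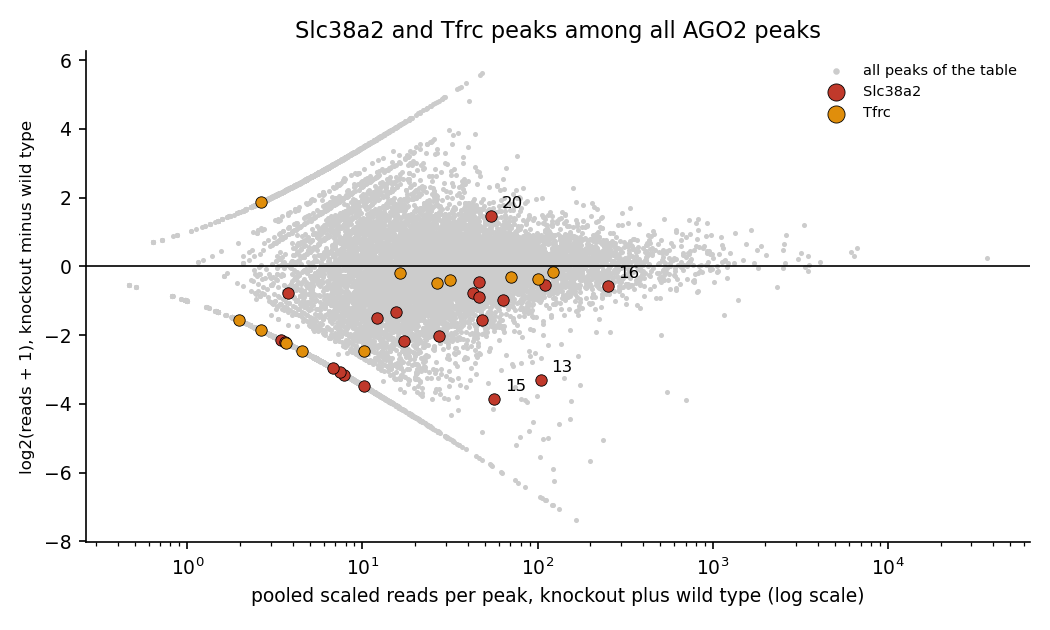
Difference of log2(reads + 1), knockout minus wild type (vertical axis), by pooled scaled reads of both genotypes together (horizontal axis, log scale), for all peaks in grey, Slc38a2 in red and Tfrc in orange. Slc38a2 peaks 13 and 15 lie below most grey points with similar reads, peak 20 is the only Slc38a2 point above 0, and 11 of 12 Tfrc points lie below 0.

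Other microRNA families had sites on Slc38a2 as well. Of the 21 families searched, 4 peaks held a 7-nt or 8-nt site (19.05%, beside 38.2% of all peaks). They were peaks 2, 6, 13 and 17. Slc38a2 peaks had a median length of 32 nt, beside 39 nt over all peaks, and the shares were not adjusted for length. Peak 2 held overlapping sites of miR-26 and miR-181, with 15.6 reads in knockout cells and 27.3 in wild-type cells (log2 difference -0.77; deposited p = 0.857). Peak 6 and peak 17 held sites of the miR-25/92 family. Peak 6 was listed at 0 in knockout cells with 7.85 reads in wild-type cells, and peak 17 had 11.7 in knockout cells and 36.6 in wild-type cells (log2 difference -1.57; deposited p = 0.249). Peak 13 also held a miR-101 site, which starts 2 nt before the peak. Capitals mark the seed or the site in the following sequences, from the same sources as above.
miR-26a-5p: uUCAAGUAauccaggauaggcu
Slc38a2 peak 2, miR-26 8-nt site, minus strand of chr15:96689757-96689786: cttggatattttatgatttTACTTGAAtgt
Slc38a2 peak 2, miR-181 7-nt site, minus strand of chr15:96689753-96689782: gatattttatgattttactTGAATGTgcct
miR-92a-3p: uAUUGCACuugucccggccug
Slc38a2 peak 6, miR-25/92 7-nt site, minus strand of chr15:96689214-96689243: gattttgaggtaccaaataGTGCAATtggg
Slc38a2 peak 17, miR-25/92 7-nt site, minus strand of chr15:96687668-96687697: aacttgtttaaattgtattTGCAATAaact
Slc38a2 peak 13, miR-101 7-nt site, minus strand of chr15:96687945-96687974: atggaacgtttcaataactGTACTGTtatt

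Other short motifs were searched on the transcript strand only. The Pumilio element TGTANATA, the binding motif of PUM proteins, was present in Slc38a2 peaks 14, 15 and 20 and in 3.70% of all peaks. The AU-rich pentamer ATTTA was present in peaks 3, 13 and 14 and in 11.6% of all peaks; in peak 13 it lies inside TATTTAT. The polyadenylation signal AATAAA was present in peak 17 and in 9.57% of all peaks, and its variant ATTAAA in peak 13 and 4.69%. Peaks of Slc38a2 had a median A and T content of 65.9%, beside 63.2% over all peaks.

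None of the AGO2 contacts on Tfrc passed the test between the genotypes. The Tfrc 3′ UTR is 2458 nt long, in exon 19 of 19 (transcript ENSMUST00000023486.14), on the plus strand of chromosome 16 from 32630337 to 32632794 of GRCm38. Its 12 peaks covered 22.2% of it and had lengths from 30 to 68 nt. After Benjamini-Hochberg adjustment 0 of them passed in either direction, 0 had an unadjusted p below 0.05, and the smallest p, that of peak 9, was 0.222 in the authors' deposited table.

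The 5 most-read Tfrc peaks held 89.3% of the gene's reads. Peak 2, at nt 169 to 199, held 57.4 reads in knockout cells and 64.4 in wild-type cells (log2 difference -0.16; p = 0.904 in the authors' deposited table). Peak 12, which ends 29 nt before the end of the UTR, held 43.7 in knockout cells and 57.0 in wild-type cells (log2 difference -0.38; deposited p = 0.673). Peak 7, at nt 968 to 1007, held 31.4 in knockout cells and 39.1 in wild-type cells (log2 difference -0.31, deposited p = 0.897). All of them had slightly fewer reads in knockout cells. Peak 4 held 13.5 in knockout cells and 18.1 in wild-type cells, and peak 3 held 10.9 in knockout cells and 15.8 in wild-type cells (log2 differences -0.39 and -0.50; deposited p = 0.659 and 0.596).

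The remaining Tfrc peaks were thinly read. Peak 1, just after the stop codon, held 7.63 reads in knockout cells and 8.84 in wild-type cells, and peak 5 held 0.868 in knockout cells and 9.35 in wild-type cells (log2 difference -2.47; deposited p = 0.690). Peaks 6, 8, 9 and 11 were listed at 0 in knockout cells, with 1.97 to 4.51 reads in wild-type cells. Peak 10 was the only one with more reads in knockout cells, 2.64, and was listed at 0 in wild-type cells. All 7 peaks with at least 10 scaled reads had fewer reads in knockout cells, none of them past the test. Among 302 genes with at least 10 peaks the log2 ratio of Tfrc was the 50th lowest.

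**Figure D4:**
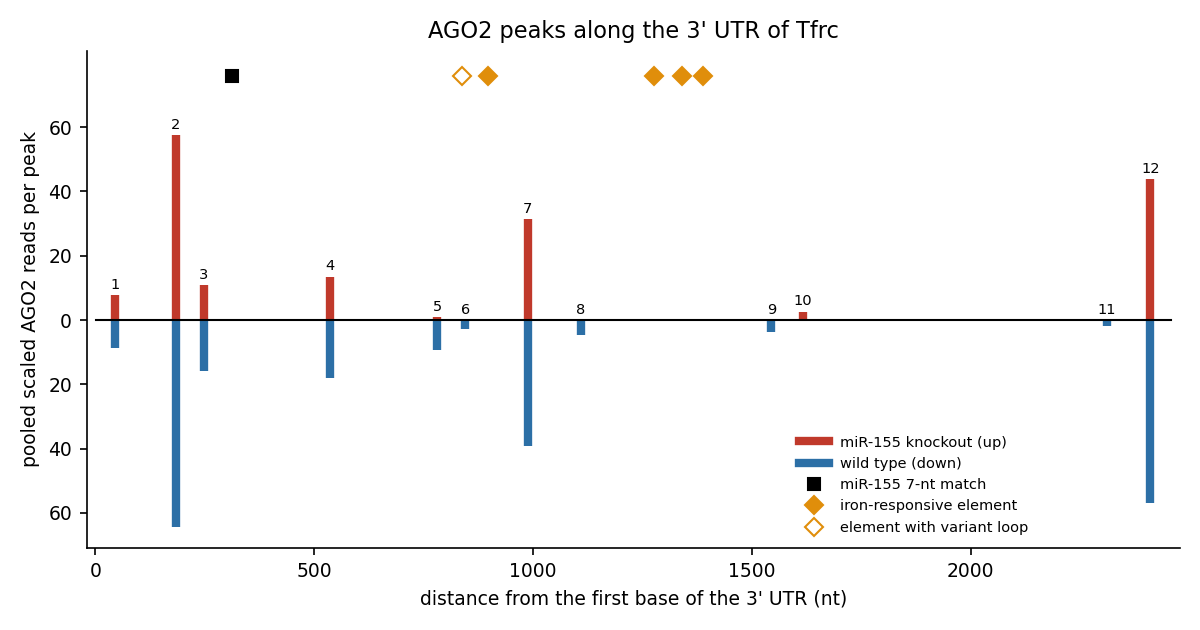
Pooled scaled AGO2 reads of each Tfrc peak (vertical axis; knockout upward in red, wild type downward in blue) by position in the 3′ UTR in nt (horizontal axis), with the miR-155 match (square), the 4 iron-responsive elements (filled diamonds) and the element with a variant loop (open diamond) at the top. No bar stands under the square or a filled diamond, and each of the 5 most-read peaks has a slightly shorter bar in knockout than in wild-type cells.

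Tfrc also has a miR-155 match, but no peak was listed there. It is a 7-nt match of the 7mer-A1 kind at nt 309 to 315, printed above, and the nearest peak, peak 3, ends 40 nt before it. In Slc38a2 the 6-nt match at nt 622 to 627 likewise lay outside all peaks, 80 nt from the nearest. Of the 3 matches that pair with at least bases 2 to 7, the 8-nt match in Slc38a2 peak 13 was the only one under a peak. Tfrc peak 9 held a match with 1 mismatch, G7T, and was listed at 0 in knockout cells and 3.65 in wild-type cells.

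The most-read Tfrc peaks carried sites of other families or none. Peak 4 held an 8-nt site of miR-30, peak 7 a 7-nt site of miR-19 and peak 12 an 8-nt site of miR-23. They made up 3 of 12 peaks (25%) with a 7-nt or 8-nt site of the 21 families, beside 38.2% of all peaks. Among matches that pair with at least bases 2 to 7, peak 2, the most read, held only a 6-nt match to miR-17. Over the whole UTRs, 3 of 9 such 7-nt and 8-nt sites in Tfrc and 6 of 12 in Slc38a2 lay within peaks and their flanks, which take up 28.0% and 33.0% of the sequence. The following sequences show these sites, with the seed or the site in capitals.
miR-30a-5p: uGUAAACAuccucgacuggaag
Tfrc peak 4, miR-30 8-nt site, plus strand of chr16:32630859-32630888: ttagctggaccaatttgtcTGTTTACAgga
miR-19b-3p: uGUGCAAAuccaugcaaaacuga
Tfrc peak 7, miR-19 7-nt site, plus strand of chr16:32631300-32631329: acccacagatactggaagtTTTGCACttat
miR-23a-3p: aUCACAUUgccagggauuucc
Tfrc peak 12, miR-23 8-nt site, plus strand of chr16:32632727-32632756: tatacagctggtatgtaacAATGTGAAgat

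The 4 iron-responsive elements of Tfrc with the usual loop lay outside its AGO2 peaks. A hairpin with a variant loop, described below, lay inside peak 6. The 4 with the usual loop were found as an unpaired C followed by 5 base pairs (G-U allowed) that close a loop of the letters CAGTGN. The 3′ UTR held 4 of them, at nt 889 to 905, 1268 to 1284, 1333 to 1349 and 1380 to 1396, and 0 of 12 peaks overlapped one. Peaks covered only 22.2% of this 3′ UTR, so an overlap count of 0 for 4 short elements says nothing particular about them. The first lies between peaks 6 and 7, 27 nt from the nearer. The other 3 lie in a stretch of 386 nt without a peak between peaks 8 and 9, at least 129 nt from any peak. The longest stretch without a peak, 646 nt between peaks 10 and 11, held no element, so peaks are sparse elsewhere too. The loop letters alone, with no stem required, occurred in 2 of 12 Tfrc peaks (6 and 8) and in 8.45% of all peaks. In peak 6 these letters occur within the variant-loop hairpin described below, as its unpaired C and the 5 bases after it.

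A hairpin of the same build with the loop CAGAGN, a search added after seeing the data, lies at nt 830 to 846 inside peak 6, which was listed at 0 in knockout cells and had 2.64 reads in wild-type cells. The elements are printed with the loop in capitals, on the plus strand, to show the paired bases on both sides.
Tfrc element at nt 830, variant loop, chr16:32631160-32631188: atttatcagtgaCAGAGTtcactataaat
Tfrc element at nt 889, chr16:32631219-32631247: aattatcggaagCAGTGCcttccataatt
Tfrc element at nt 1268, chr16:32631598-32631626: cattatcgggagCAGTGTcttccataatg
Tfrc element at nt 1333, chr16:32631663-32631691: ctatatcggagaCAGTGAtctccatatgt
Tfrc element at nt 1380, chr16:32631710-32631738: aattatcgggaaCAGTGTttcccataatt

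In 4 lists of nutrient genes, 1 of 95 peaks outside Slc38a2 and Tfrc was called, which is 1.05%, beside 0.601% of all peaks. Both shares are so low that counts of 0 or 1 in a list say nothing particular about its genes. In a list of 16 amino acid transporters 8 genes had 35 peaks, of which 2 were lower, both in Slc38a2, and 0 higher (0.574% and 0.0273% of all peaks). The median log2 difference was -0.89 over these peaks, 0.10 over the 14 outside Slc38a2 and -0.20 over all peaks. Slc7a5, a subunit of the main carrier of large neutral amino acids, held 60.3 reads in knockout cells and 61.5 in wild-type cells. Slc6a6, the taurine carrier, held 53.2 in knockout cells and 14.9 in wild-type cells over 2 peaks. Slc7a1, a carrier of cationic amino acids, held 29.4 in knockout cells and 34.8 in wild-type cells.

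Among iron genes, 8 of 17 listed had 27 peaks, with 0 lower and 0 higher after Benjamini-Hochberg adjustment (0.601% of all peaks were called), and a median log2 difference of -0.39 (-0.09 over the 15 peaks outside Tfrc). Ireb2, an iron regulatory protein that binds the elements shown above, held 110 reads in knockout cells and 97.3 in wild-type cells. Pcbp1, an iron chaperone and RNA-binding protein, held 173 in knockout cells and 129 in wild-type cells. Pcbp2, a related protein, held 8.07 in knockout cells and 20.9 in wild-type cells.

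Of 8 glucose and lactate transporters 4 had 36 peaks, none called (0.601% of all peaks), with a median log2 difference of -0.05. The glucose carrier gene Slc2a3 held 1545 reads in knockout cells and 1433 in wild-type cells over 27 peaks, more of both than Slc38a2, and Slc2a1 held 209.9 in knockout cells and 199.7 in wild-type cells. The lactate carrier gene Slc16a1 was listed at 0 in knockout cells over 3 peaks, with 33.96 reads in wild-type cells, and Slc16a3 held 6.69 in knockout cells and 8.56 in wild-type cells.

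In a list of 25 genes of amino acid sensing, 12 had 30 peaks, of which 1 was lower and 0 higher (0.574% and 0.0273% of all peaks), and the median log2 difference was -0.38. The called peak was in Rheb, the GTPase that activates mTORC1. This peak held a 7-nt miR-155 match of the 7mer-A1 kind, with 12.6 reads in knockout cells and 128 in wild-type cells. The whole gene held 250.0 in knockout cells and 439 in wild-type cells over 3 peaks. Sesn3, a stress-induced inhibitor of mTORC1, held 519 in knockout cells and 283 in wild-type cells, and Rraga, a GTPase of the lysosomal sensor, held 175 in knockout cells and 157 in wild-type cells. Rragd, a partner GTPase, held 112 in knockout cells and 135 in wild-type cells.

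**Figure D5:**
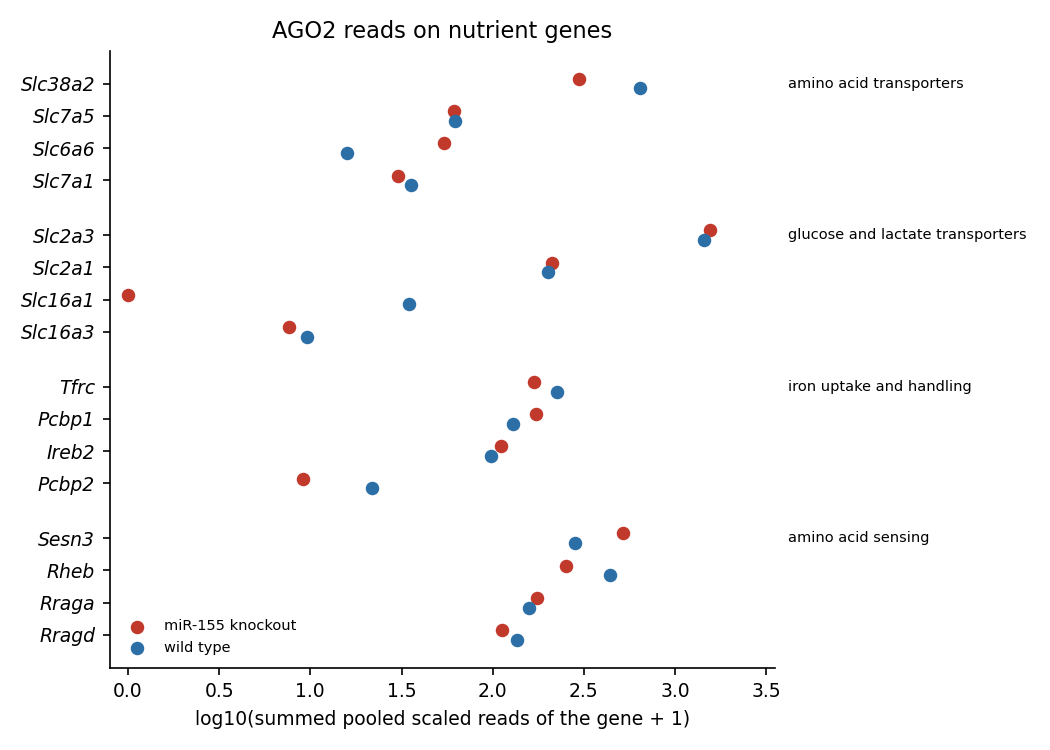
Summed pooled scaled reads (horizontal axis, log10 of reads + 1) of the 4 most-read genes of each nutrient list (rows), with the knockout in red above wild type in blue. Slc38a2 has 296 reads in knockout cells and 643 in wild-type cells, while Slc7a5 and Slc2a1 have nearly the same reads in both.

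The genes most like each member were sought over 937 genes with at least 5 peaks, by the distance over log2 summed reads, log2 number of peaks and log2 ratio, each divided by its SD over these genes. For Slc38a2 they were Rcor1 (distance 0.34; 227 reads in knockout cells and 473 in wild-type cells over 20 peaks), Pank3 (0.42; 234 in knockout cells and 467 in wild-type cells, 23 peaks) and Rc3h2 (0.59; 193 in knockout cells and 384 in wild-type cells, 19 peaks). For Tfrc they were Dmtf1 (0.21; 175 reads in knockout cells and 225 in wild-type cells, 11 peaks), Pvr (0.24; 207 in knockout cells and 286 in wild-type cells, 12 peaks) and Crem (0.28; 193 in knockout cells and 270.4 in wild-type cells, 11 peaks). The measure rests on the 2 pooled genotype values, so it says only that numbers of reads and peaks were alike.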

How the data were processed

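Per the submitters' processing notes, reads were mapped with Bowtie 0.12.7 and the mm9 genome was used. The sources used here do not state how peaks were called, reads scaled, duplicates treated or peaks tested. Per the file headers, the deposited log2 values are reads per genotype and their log2 ratio, wild type over knockout, and each peak has a deposited p-value. The genotype columns were read as log2(reads + 1), since listed values start at 0. Differences are given as knockout minus wild type. Benjamini-Hochberg adjustment was applied to the deposited p-values of all 14634 peaks, and calls were made at 0.05; unadjusted, 4.20% lay below 0.05. How far these p-values take in differences among libraries is not known, nor is depth. Sequences in the table extend 6 nt beyond each peak. All 33 matched GENCODE M21 transcripts exactly, so positions are on GRCm38, not mm9. Seeds of 21 microRNA families were read from RefSeq. Another planned family, miR-150, was not found there, so its sites were not searched. The adjustment and the site search were tested on simulated data. The peaks given singly were those called, the 5 most-read per gene and those with a miR-155 match, a 7-nt or 8-nt site or an iron-responsive element; the other peaks were added for completeness after their values were seen. Of each list the 4 most-read genes and any called gene were named. Members and lists were chosen with earlier results of these data known. Python 3.11.15, NumPy 2.4.6 and pandas 2.3.3 were used. The alternatives were other thresholds and adjustments, a minimum of 10 reads, other pseudocounts, centring, other site definitions and wider peaks.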

Additional observations from a re-analysis of the deposited data

How the results depend on the processing

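The 2 lowered Slc38a2 peaks kept their call at adjusted p thresholds of 0.01 and 0.1, among peaks with at least 10 scaled reads and among peaks with reads in both genotypes; by Bonferroni adjustment 1 remained, peak 13. No Tfrc peak was called under any of these. The log2 ratio of summed reads of Slc38a2 was -1.34 without its most-read peak and -0.80 without the called peaks, and that of Tfrc -0.54 without its most-read peak. The median log2 difference of Slc38a2 peaks, -1.57, was -1.25 with no pseudocount over peaks with reads in both genotypes, -1.32 among peaks with at least 10 scaled reads and -1.37 centred on the median of all peaks. That of Tfrc, -0.44, was -0.25 when centred. Counting 6-nt matches to bases 2 to 7, 6 Tfrc peaks in place of 3 held a site, and 6 Slc38a2 peaks in place of 4. Over all peaks the share with a site was then 51.3% in place of 38.2%. With the variant loop, chosen after seeing the data, 1 Tfrc peak overlapped an iron-responsive element. No direction reversed under the alternatives tried. No paired analysis was possible because the table pools the libraries of a genotype, and for the same reason no replicate could be left out. The pseudocount of 1 understates differences of thinly read peaks, and peaks with few reads limit what the test can show, as with those of Tfrc under 10 reads.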
